A study of Mus musculus with 19 samples.

Results

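The comparison described here set tumours that began in involucrin (Ivl) expressing skin cells against tumours that began in keratin 5 (K5) expressing skin cells. Its members were the 6 libraries labelled as Ivl tumours and the 5 labelled as K5 tumours, 11 of the 19 libraries of the series. The 4 K14 tumours, which also began in basal cells, and the 4 samples of normal wild-type skin are given only beside these values.

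All tumours came from female mice, 7 to 20 weeks old per the labels, and are labelled squamous cell carcinoma. Both groups carried the oncogene BRAFV600E, an activated form of the kinase BRAF, behind a tamoxifen-inducible Cre recombinase. In Ivl:BRAFV600E mice the Ivl promoter drove Cre, which places the oncogene in basal cells committed to differentiation and in the suprabasal layers. In K5:BRAFV600E mice the Krt5 promoter drove Cre, which places it in the basal stem cell population. Per the methods of the study, Cre was induced on the back with tamoxifen for the Ivl line and with 4-hydroxytamoxifen for the K5 line, so agent and origin cannot be told apart. The same holds for latency, which was longer in the Ivl line, and for position on the body, because Ivl mice grew lesions at several sites and K5 mice at the treated site. The labels do not give the site of a tumour or say whether the tumours came from separate mice, so p-values measure the spread between these tumours only.

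The basal layer of the epidermis holds keratin 5 and keratin 14 positive cells that divide and attach to the basement membrane. Cells that leave it switch on involucrin and other proteins of the cornified envelope. The epithelia that line the mouth and oesophagus build the same layers with another set of keratins, led by keratin 13 and keratin 4, under the transcription factor SOX2. BRAF acts through the MEK and ERK kinases, and ERK raises the transcription of its own inhibitors, so the RNA of these inhibitors is often used as a readout of the pathway.

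Total counts in the 11 libraries lay between 46861579 and 72609771, and 5562 to 10882 genes were at 0. Ivl tumours 1 to 3 and K5 tumour 1 stood apart from the other libraries, in that the average of these 4 differed from that of the remaining 15 by under 0.1 log2 for 96.6% of 13954 genes with a mean over 2 CPM. The study adjusted its counts for a sequencing batch and gave batches of 4 and 15 libraries, without naming the libraries of each batch. Where the mean of a set is held to that of the rest, the level in K5 tumour 1 moves against those of the 3 Ivl tumours. Every comparison was therefore made over all 11 tumours and again over the other 7, Ivl tumours 4 to 6 against K5 tumours 2 to 5. The second comparison uses some of the libraries of the first and is not independent of it. Levels are library-size normalised counts (CPM) scaled by the trimmed mean of M values, and differences are log2, Ivl minus K5, with standard errors from edgeR. A gene was called at an edgeR p-value under 0.05 after Benjamini-Hochberg adjustment for every gene tested, and adjusted p below has this meaning.

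The number of genes called depended on the test. With edgeR, over the 11 tumours, 470 of 32031 genes were called (1.47%), 245 higher in Ivl tumours (0.765%) and 225 lower (0.702%), while 7221 genes had an unadjusted p under 0.05. Over the 7 tumours, 111 of 31971 genes were called (0.347%), 46 higher (0.144%) and 65 lower (0.203%), with 3919 at an unadjusted p under 0.05. In both comparisons and in the same direction 69 genes were called (0.216%), 33 higher (0.103%) and 36 lower (0.113%), and 66 of the 69 code for protein. The ranges of the origins did not overlap for 58 of the 69 over the 11 tumours, against 3.31% of all genes (1.6% higher and 1.71% lower), and for all 69 over the 7, against 13.7% (7.28% higher and 6.42% lower). The median difference over all genes tested was 0.13 over the 11 tumours and 0.0 over the 7. At the same threshold DESeq2, the tool of the study, called 3207 genes over the 11 tumours, 1162 over the 7 and 824 in both. The study itself set Ivl tumours against K5 and K14 tumours merged and reported few differing genes. Its text does not state the cutoffs of that comparison, so the counts are not alike. The edgeR counts also depended on single tumours. The count of 470 became 96 without K5 tumour 1, 143 without K5 tumour 3, 163 without K5 tumour 4, 145 without K5 tumour 5, 200 without Ivl tumour 6, 305 without Ivl tumour 2 and 734 without Ivl tumour 5. The count of 111 became 19, 16 and 53 without Ivl tumours 4, 5 and 6, and 31, 19 and 27 without K5 tumours 3, 4 and 5. The count of 69 became 16, 15 and 16 without those Ivl tumours, 17, 13 and 13 without those K5 tumours, and 46 without K5 tumour 1. All 69 genes kept their direction over the 11 tumours when any of the 11 was left out, which their selection on these same tumours made likely.

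The 4 libraries left out of the second comparison give values that its calls did not use, although the batch adjustment may have tied them. Of its 46 genes called higher, 41 (89.1%) were also higher in the mean of Ivl tumours 1 to 3 than in K5 tumour 1, against 56.1% of all genes. Of its 65 genes called lower, 63 (96.9%) were also lower, against 43.9% of all genes. K5 tumour 1 lay outside all 3 Ivl tumours in the called direction for 38 of the 46 (82.6%) and 56 of the 65 (86.2%), where the shares over all genes were 24.0% and 22.2%. There is 1 K5 tumour in that set, so no test was made.

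**Figure D1:**
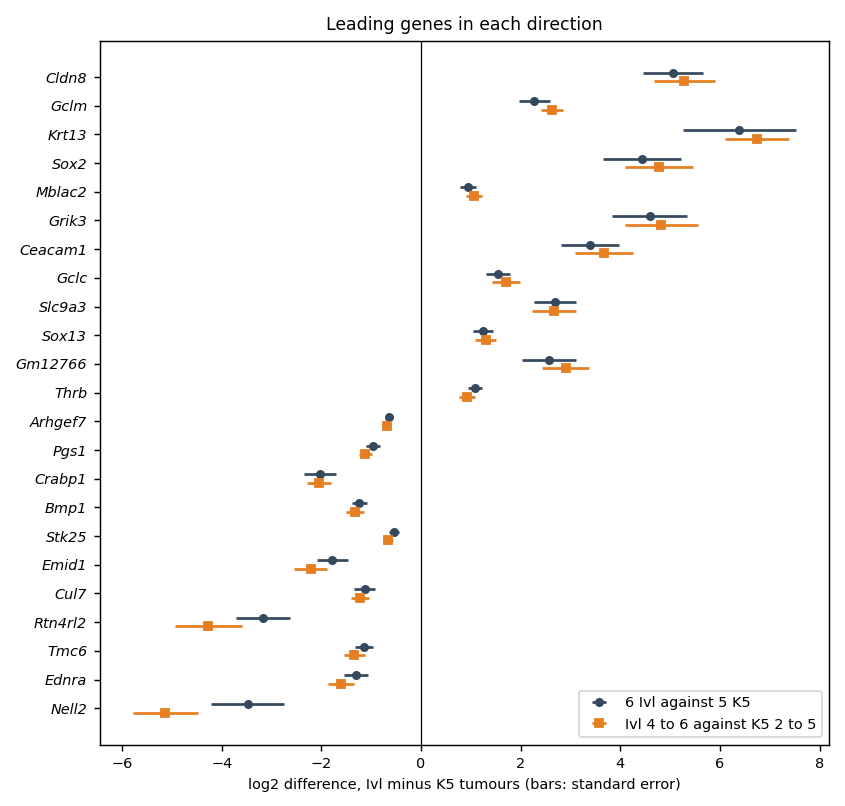
Log2 difference between Ivl and K5 tumours (x axis, Ivl minus K5) for the 12 genes that lead the higher calls and 11 that lead the lower calls (y axis), with standard errors as bars. Circles are 6 Ivl against 5 K5 tumours and squares are Ivl tumours 4 to 6 against K5 tumours 2 to 5. Each gene lies on the same side of 0 in both, from 6.39 and 6.75 for Krt13 to -3.48 and -5.13 for Nell2.

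Of 20 genes of oral and mucosal epithelium, 3 were called higher over the 11 tumours and 5 over the 7, and none was called lower. Sox2, a regulator of these epithelia, encodes a transcription factor of stem cells and of oesophageal epithelium (chromosome 3, 34650405 to 34652461, plus strand, GRCm38). The Ivl tumours held 2.84 CPM at the lowest, 9.75 at the median and 32.0 at the highest. K5 tumours 1 to 5 held 0.127, 0.152, 0.722, 1.45 and 0.972 CPM. All 6 Ivl tumours were above all 5 K5 tumours, but among Ivl tumours the level was uneven, with tumours 1, 4 and 5 at 15, 31.2 and 32 CPM and tumours 2, 3 and 6 at 2.84, 2.86 and 4.49. The difference was 4.43 ± 0.78 (adjusted p 0.011) over the 11 tumours and 4.77 ± 0.68 (adjusted p 0.014) over the 7.

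Krt13, the type I keratin of the layers above the basal cells in mucosa (chromosome 11, 100117327 to 100121566, minus strand), varied over a wider span. Its level in Ivl tumours was 79.9 CPM at the lowest, 633 at the median and 2592 at the highest. In K5 tumours 2 to 5 it was 17.8, 17.1, 15.6 and 15.4 CPM, and in K5 tumour 1 it was 0.0318 CPM. The lowest Ivl tumour was thus above the highest K5 tumour, and the 4 K5 tumours outside the set of 4 lay close together. The difference was 6.39 ± 1.14 (adjusted p 0.014) over the 11 tumours and 6.75 ± 0.64 (adjusted p 0.00076) over the 7, where K5 tumour 1 plays no part.

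Krt4, the type II partner of keratin 13 (chromosome 15, 101918535 to 101924735, minus strand), followed the same order. It lay at 4.15, 13.5 and 82.0 CPM in the lowest, median and highest Ivl tumour. The K5 tumours held 0.0318, 1.11, 0.700, 1.33 and 0.605 CPM. The groups did not overlap, and the difference was 5.06 ± 0.96 (adjusted p 0.018) and 5.4 ± 0.91 (adjusted p 0.029). When tumours were exchanged between origins in an exact two-sided permutation test on log2 levels, Sox2, Krt13 and Krt4 each gave p = 0.0022 over the 11 tumours and p = 0.029 over the 7, the smallest values that 462 and 35 splits allow. For groups that do not overlap this test always gives its smallest p, and the study had picked these genes from the same libraries, so the values add nothing to the ranges above.

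Cldn8, a claudin that seals tight junctions (chromosome 16, 88560828 to 88563183, minus strand), had the smallest adjusted p among the higher calls over the 11 tumours. The Ivl tumours ranged from 12.7 to 73.0 CPM around a median of 25.9. In K5 tumours it was at 0.302, 0.608, 1.29, 1.49 and 0.886 CPM. Every Ivl tumour was far above every K5 tumour, with a difference of 5.05 ± 0.60 (33.1-fold, adjusted p 0.0012) over the 11 tumours and 5.28 ± 0.61 (adjusted p 0.0029) over the 7. In normal skin Cldn8 was at 11.4 to 23.5 CPM, and it was at 1.17 to 5.99 CPM in K14 tumours.

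Of the 20 genes of oral and mucosal epithelium on a list that includes Krt13, Krt4 and Cldn8, 17 had a positive difference over the 11 tumours and 19 over the 7. The list's median difference was 1.6 and 1.4, against 0.13 and 0.0 for all genes. Summed over the list, Ivl tumours 4 to 6 held 4174 to 6567 CPM and K5 tumours 2 to 5 held 2449 to 2949 CPM. Ivl tumours 1, 2 and 3 held 5755, 1636 and 1331 CPM and K5 tumour 1 held 987 CPM. The sums thus overlapped over the 11 tumours. The further calls over the 7 tumours were Sprr3, a small proline-rich protein of the cornified envelope of mucosa (4.04 ± 0.65, adjusted p 0.044), and Tmprss11a, a membrane serine protease (2.53 ± 0.43, adjusted p 0.029). Over the 11 tumours neither passed (adjusted p 0.11 and 0.088). Tmprss11b, of the same protease family, overlapped between the origins, at 41.4 to 442 CPM in Ivl and 5.96 to 378 CPM in K5 tumours (0.64 ± 0.69, adjusted p 0.61, over the 11).

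Among 16 transcription factors of squamous epithelium and skin, Sox2 was called in both comparisons and Sox21 over the 11 tumours only (1.15 ± 0.26, adjusted p 0.036, and 0.78 ± 0.32, adjusted p 0.36). The list's median was 0.31 and 0.17. Trp63, the master regulator of stratified epithelia, differed by -0.11 and -0.22, and neither value passed. Pitx1, which works with Sox2 in squamous carcinoma, was higher in Ivl tumours 1, 4, 5 and 6 (104 to 295 CPM) than in any K5 tumour (6.29 to 90.2 CPM) but was at 27.1 and 40.9 CPM in Ivl tumours 2 and 3, and it did not pass (1.5 ± 0.61, adjusted p 0.16, and 1.69 ± 0.37, adjusted p 0.071). Sox13, of the SOXD family, was called higher in both, at 20.4 to 37.2 CPM in Ivl and 8.91 to 14.6 CPM in K5 tumours.

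**Figure D2:**
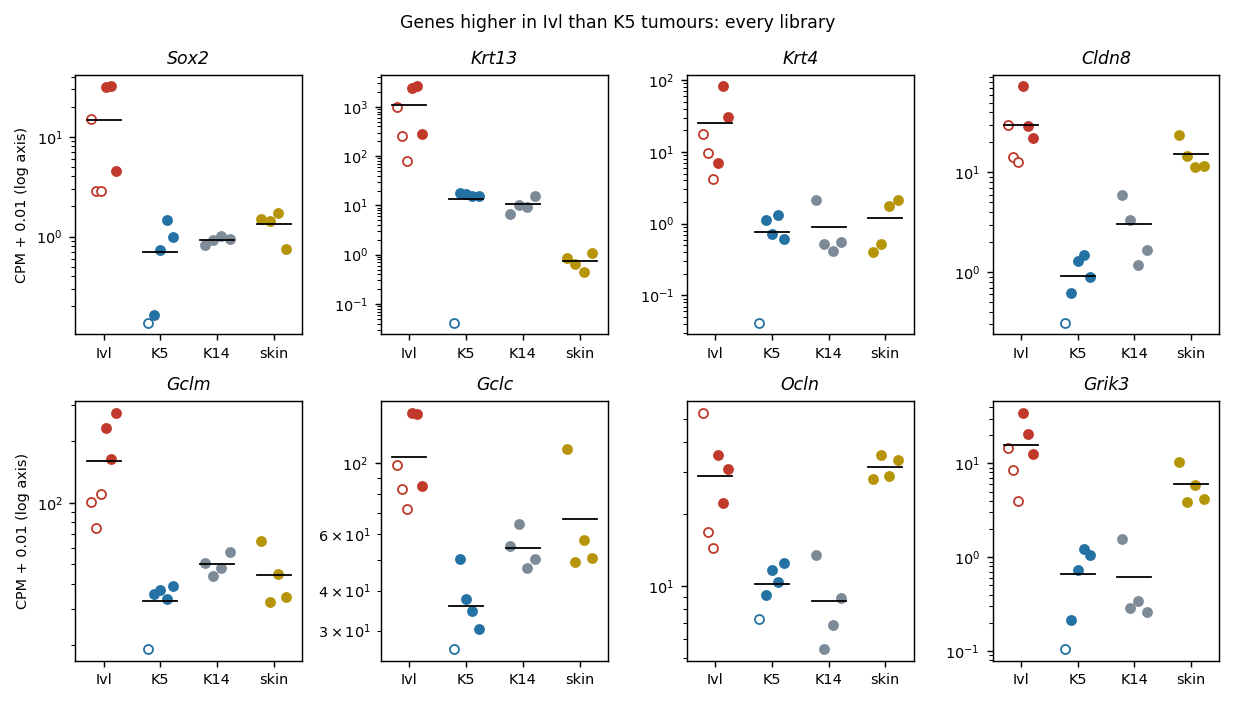
CPM plus 0.01 (y axis, log) of 8 genes called higher in Ivl than in K5 tumours, in each of the 19 libraries by group (x axis); lines are group means. Open symbols are Ivl tumours 1 to 3 and K5 tumour 1. In all 8 genes every Ivl tumour lies above every K5 tumour, and for Ocln the skin samples, at 27.9 to 35.1 CPM, lie within the range of the Ivl tumours.

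Both subunits of glutamate-cysteine ligase, which makes the first step of glutathione synthesis, were higher in Ivl tumours. Gclm, the modifier subunit (chromosome 3, 122245557 to 122270732, plus strand), lay at 74.8, 137 and 276 CPM in the lowest, median and highest Ivl tumour. The K5 tumours held 19.2, 35.5, 37.2, 33.9 and 39.2 CPM. No Ivl tumour reached down to the K5 range, and the difference was 2.27 ± 0.31 (4.84-fold, adjusted p 0.0029) over the 11 tumours and 2.62 ± 0.22 (adjusted p 0.00019) over the 7. Exons of Gclm overlap those of Gm17494 and Gm6061, and since the use of strand in counting is not stated, reads could be divided between them.

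Gclc, the catalytic subunit (chromosome 9, 77754535 to 77794485, plus strand), held 72.0, 91.8 and 144 CPM in the lowest, median and highest Ivl tumour. K5 tumours 1 to 5 had 26.3, 50.3, 37.7, 34.5 and 30.4 CPM. The groups again did not overlap, with a difference of 1.54 ± 0.24 (2.91-fold, adjusted p 0.0067) and 1.70 ± 0.28 (adjusted p 0.024). The levels in K14 tumours were 43.9 to 57.5 CPM for Gclm and 47.1 to 64.5 CPM for Gclc, below every Ivl tumour.

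A list of 28 genes of glutathione synthesis and of other targets of the transcription factor NRF2 was drawn up after these values had been seen. It held 4 higher calls over the 11 tumours and 3 over the 7, no lower call, and a median difference of 0.25 and 0.32. Beside the ligase subunits, the glutathione transferases Gsta3 (3.17 ± 0.65, adjusted p 0.025) and Gstm1 (1.98 ± 0.38, adjusted p 0.018) were called over the 11 tumours. Over the 7 they did not pass (adjusted p 0.056 and 0.088). Glutathione synthetase, Gss, which makes the second step, was called over the 7 only (1.07 ± 0.21, adjusted p 0.047, against 0.84 ± 0.22, adjusted p 0.055). Of the 28 genes, 21 had a positive difference over the 11 tumours and 26 over the 7. The list's sum overlapped between origins over the 11 tumours. Over the 7 it did not, at 5825 to 6699 CPM in Ivl and 4737 to 5238 CPM in K5 tumours. Common NRF2 readouts outside glutathione synthesis and the transferases were not called. Nqo1 differed by 0.62 and 0.81, Srxn1 by -0.16 and 0.30, Txnrd1 by -0.02 and 0.05 and Hmox1 by -0.87 and -0.41.

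To show the sequence next to genes that separated the origins, the 250 bases before the transcription start are shown for 3 of them, from RefSeq on GRCm38.p6, each 5′ to 3′ on the strand of the gene. They were searched on both strands for the antioxidant response element that NRF2 binds (TGACNNNGC), for the AP-1 site that FOS and JUN bind downstream of ERK (TGANTCA) and for a SOX site (ACAATG), and matches are in capitals. An AP-1 match followed by GC can also be an antioxidant response element. The Gclm sequence (chr3:122245307-122245556, plus strand) and the Krt13 sequence (chr11:100121567-100121816, minus strand) each hold 1 match, and the Sox2 sequence (chr3:34649745-34649994, plus strand) holds none. The RefSeq start of Sox2 lies upstream of the gene start given above from GENCODE, so its window is further from that start than those of the others.
Gclm: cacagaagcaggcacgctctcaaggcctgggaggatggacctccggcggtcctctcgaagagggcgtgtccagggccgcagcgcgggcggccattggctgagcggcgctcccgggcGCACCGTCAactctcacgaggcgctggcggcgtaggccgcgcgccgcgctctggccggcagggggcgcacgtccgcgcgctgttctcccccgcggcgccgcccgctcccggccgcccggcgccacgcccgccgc
Krt13: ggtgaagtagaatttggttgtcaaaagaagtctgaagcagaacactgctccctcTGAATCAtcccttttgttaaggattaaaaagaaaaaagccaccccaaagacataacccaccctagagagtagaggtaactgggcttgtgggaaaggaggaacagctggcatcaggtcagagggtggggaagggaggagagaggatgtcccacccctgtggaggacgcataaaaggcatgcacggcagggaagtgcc
Sox2: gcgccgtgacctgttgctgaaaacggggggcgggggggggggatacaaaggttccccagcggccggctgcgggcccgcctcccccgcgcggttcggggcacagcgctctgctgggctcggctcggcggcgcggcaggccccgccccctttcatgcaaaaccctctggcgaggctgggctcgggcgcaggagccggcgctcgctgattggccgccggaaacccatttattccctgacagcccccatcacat

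The match in Gclm is an antioxidant response element read from the other strand, 134 to 126 bases before the start. The match in Krt13 is an AP-1 site 196 to 190 bases before the start, and the table gives Krt13 a further start with 2 AP-1 matches in its window. Of the 33 genes called higher in both comparisons, 23 had an entry in the table. The antioxidant response element was found for 3 of them, the AP-1 site for 3 and the SOX site for 2. Of the 36 genes called lower, 27 had an entry and 6, 1 and 0 had these matches. Over all 32851 promoters the shares were 10.2%, 6.75% and 10.7%. The counts are descriptions of these windows, in which a gene with several starts had more than one chance of a match.

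Other junction and surface genes were called higher in both comparisons. Ocln encodes occludin, a tight junction protein. It held 14.4, 26.5 and 52.9 CPM in the lowest, median and highest Ivl tumour and 7.26, 9.16, 11.6, 10.4 and 12.5 CPM in the K5 tumours, so the groups touched closely without overlap (1.49 ± 0.30, adjusted p 0.021, and 1.43 ± 0.25, adjusted p 0.029). Of 15 tight junction genes, a list drawn up after the values were seen, only Cldn8 and Ocln were called, and the median was 0.34 and 0.20. Ceacam1, an adhesion receptor, lay at 5.32 to 37.8 CPM in Ivl and 0.556 to 3.78 CPM in K5 tumours. Grik3, a kainate receptor subunit, lay at 4.0 to 34.7 CPM in Ivl and 0.0953 to 1.21 CPM in K5 tumours (4.59 ± 0.75, adjusted p 0.0068, and 4.82 ± 0.73, adjusted p 0.021). Slc9a3, a sodium and proton exchanger, lay at 2.13 to 6.64 CPM in Ivl and 0.207 to 0.926 CPM in K5 tumours.

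The remaining leading genes on this side changed by less or were weakly expressed. Thrb, a thyroid hormone receptor, was 2.13-fold higher over the 11 tumours, and Ivl tumours held at least 20.7 CPM where no K5 tumour was above 14.5 CPM. Mblac2, a metallo-beta-lactamase domain protein, was 1.92-fold higher. Gm12766, a long non-coding RNA, was 5.91-fold higher but reached 2.52 CPM at most, and it was not called without Ivl tumour 6 (adjusted p 0.054) or without K5 tumour 1, 3, 4 or 5 (0.084, 0.058, 0.062 and 0.055).

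Some further genes called higher in both were named after their values were seen. Trps1, a transcription factor of hair and cartilage, lay at 60.8 to 106 CPM in Ivl and 14.2 to 32.2 CPM in K5 tumours. Edaradd, the adaptor of the ectodysplasin receptor, lay at 16.7 to 29.3 CPM in Ivl and 5.72 to 10.6 CPM in K5 tumours. Il1rn, the secreted antagonist of the interleukin-1 receptor, was 2.74-fold higher over the 11 tumours and 3.32-fold over the 7, where Ivl tumours held 296 to 393 CPM and K5 tumours 64.2 to 140 CPM. The carboxylesterase Ces1h held 0.0307 CPM in Ivl tumour 1 and 1.67 to 15.4 CPM in the other Ivl tumours, and it was at or under 3 counts in every K5 tumour, so the Ivl mean was at least 105-fold above a floor of 3 counts per library. Ces1h also overlaps Gm45765, and Ces1h and its neighbour Ces1g, also called, are close copies between which reads can be divided.

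Of 20 genes on a list of MAPK pathway output, 4 were called lower in Ivl tumours over the 11 tumours and none over the 7. Dusp6, the phosphatase that inactivates ERK, held 65.2, 82.2 and 124 CPM in the lowest, median and highest Ivl tumour. Those of the K5 tumours were 273, 320, 233, 242 and 280 CPM. Every Ivl tumour was below every K5 tumour, and the difference was -1.64 ± 0.27 (adjusted p 0.0068) over the 11 tumours. Over the 7 it was -1.51 ± 0.39 and did not pass (adjusted p 0.13).

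No gene of the list was called higher, and 4 and 1 of the 20 had a positive difference. The median difference was -0.51 and -0.53, against 0.13 and 0.0 for all genes. The other three called were the ERK pathway inhibitors Spry1 (-0.51 ± 0.12, adjusted p 0.034) and Spry4 (-1.96 ± 0.42, adjusted p 0.027) and the early response gene Ier3 (-1.18 ± 0.23, adjusted p 0.022). Over the 7 tumours they gave -0.59, -2.42 and -0.74 (adjusted p 0.092, 0.073 and 0.21). For all 4 genes no Ivl tumour overlapped with a K5 tumour, where 3.31% of all genes did not overlap over the 11 tumours. Summed over the list, Ivl tumours held 770 to 1262 CPM, K5 tumours 1404 to 1991 CPM, K14 tumours 711 to 1159 CPM and skin 484 to 738 CPM. The K14 tumours, of basal origin too, were thus below every K5 tumour. By staining for phosphorylated ERK and DUSP6, the study reported similar MAPK activation in the Ivl and the basal stem cell populations. Staining measures protein and is unlike these RNA levels. Braf itself was at 43.0 to 84.1 CPM in Ivl and 24.1 to 40.0 CPM in K5 tumours (0.65 ± 0.21, adjusted p 0.10, and 0.23 ± 0.20, adjusted p 0.68), and these counts do not tell the mutant from the normal allele.

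Some enzymes that process collagen were called lower in Ivl tumours, 5 of 28 on a list drawn up after the values were seen over the 11 tumours and 4 over the 7. Bmp1, the protease that trims the C-terminal end of fibrillar procollagens (chromosome 14, 70474558 to 70520234, minus strand), held 95.9, 118 and 155 CPM in the lowest, median and highest Ivl tumour. In K5 tumours the levels were 316, 279, 251, 319 and 263 CPM. The 6 Ivl tumours lay in a narrow band below all K5 tumours, with a difference of -1.24 ± 0.15 (adjusted p 0.0012) over the 11 tumours and -1.33 ± 0.18 (adjusted p 0.0096) over the 7. Tll1, a protease of the same family that cuts the same site (chromosome 8, 64014931 to 64206271, minus strand), held 0.462, 2.37 and 5.73 CPM in the lowest, median and highest Ivl tumour. In the K5 tumours it was at 36.5, 15.9, 16.1, 43.1 and 39.6 CPM. Again no values overlapped, and the difference was -3.55 ± 0.61 (adjusted p 0.010) and -4.45 ± 0.85, the latter just under the threshold (adjusted p 0.050).

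None of the 28 was called higher, 6 and 5 had a positive difference, and the medians were -0.91 and -1.09. The calls in both were Bmp1, Tll1, the lysyl hydroxylase Plod3 (-1.13 ± 0.18, adjusted p 0.0068, and -1.27 ± 0.23, adjusted p 0.035) and the lysyl oxidase Loxl3 (-1.93 ± 0.40, adjusted p 0.024, and -2.60 ± 0.45, adjusted p 0.029). P3h1, a prolyl hydroxylase, was called over the 11 tumours only (-1.51 ± 0.35, adjusted p 0.036). Plod3 shares exon sequence with Mir702 and Znhit1, and Loxl3 with Htra2. Levels of Loxl3 overlapped over the 11 tumours, as Ivl tumour 3 held 10.2 CPM and K5 tumour 2 held 8.58 CPM.

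Col12a1, a collagen that binds to the surface of fibrils (chromosome 9, 79598991 to 79718831, minus strand), was the collagen called in both comparisons. The lowest, median and highest Ivl tumour held 209, 338 and 519 CPM. The K5 tumours held 1658, 1314, 1141, 1354 and 1510 CPM. The ranges were well apart, with a difference of -2.03 ± 0.27 (adjusted p 0.0029) and -1.97 ± 0.34 (adjusted p 0.029). Of 16 fibrillar and fibril-associated collagens, 1 was called lower over the 11 tumours and 2 over the 7, where the second was Col8a1 (-1.54 ± 0.27, adjusted p 0.029), and the medians were -1.44 and -1.82. The major fibril collagen gene Col1a1 did not pass (-1.69 ± 0.68, adjusted p 0.16, and -2.70 ± 0.78, adjusted p 0.18). Ivl tumours ranged from 363 to 3211 CPM, with tumour 3 at the top, and K5 tumours from 1687 to 5817 CPM.

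Podnl1, a leucine-rich matrix protein, lay at 0.891 to 4.13 CPM in Ivl and at 14, 8.0, 9.62, 12.6 and 14 CPM in K5 tumours (-2.32 ± 0.37, adjusted p 0.0068, and -2.47 ± 0.42, adjusted p 0.029). On the list of 21 activated stroma genes it was called in both, and the matricellular protein Thbs1 over the 11 tumours only (-1.35 ± 0.33, adjusted p 0.047). The list's medians were -0.99 and -1.33.

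Markers of fibroblasts moved with these genes. Summed over 15 fibroblast markers, Ivl tumours 4 to 6 held 1713 to 3008 CPM and K5 tumours 2 to 5 held 5934 to 10311 CPM, with no overlap. In the set of 4, Ivl tumours 1 to 3 held 1708 to 11585 CPM and K5 tumour 1 held 15939 CPM. None of the 15 was called in either comparison, 3 and 2 of them had a positive difference, and the medians were -0.80 and -1.04. For 15 endothelial markers the medians were -0.84 and -1.13, again without a call. In bulk RNA, fewer cells of a type and less RNA per cell cannot be told apart, and the part of the fibroblast level in the differences above was not tested.

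**Figure D3:**
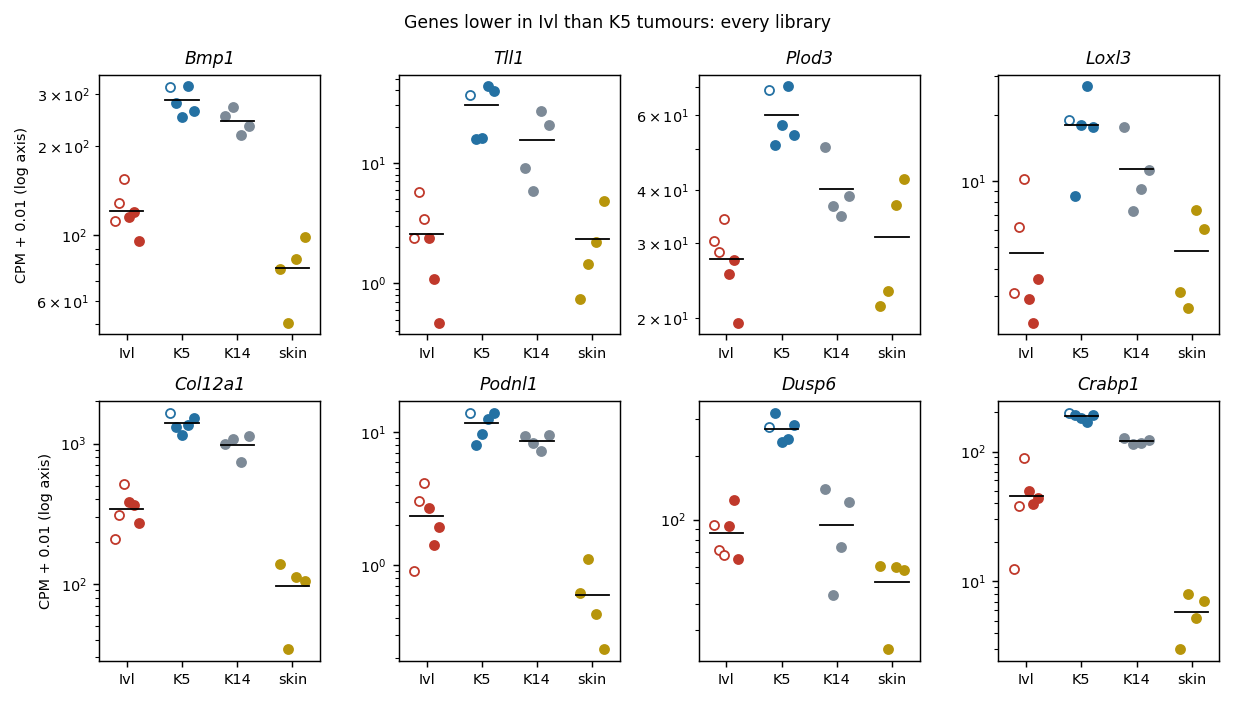
CPM plus 0.01 (y axis, log) of 8 genes lower in Ivl than in K5 tumours, in each of the 19 libraries by group (x axis); lines are group means. Open symbols are Ivl tumours 1 to 3 and K5 tumour 1. In all of them except Loxl3 every Ivl tumour lies below every K5 tumour, and Dusp6 was called over the 11 tumours only.

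Other genes that led the lower calls had no common role. Crabp1, which binds retinoic acid in the cytoplasm, held 12.4, 41.7 and 89.9 CPM in the lowest, median and highest Ivl tumour and 199, 190, 182, 169 and 192 CPM in the K5 tumours, which lay close together and above all Ivl tumours (-2.03 ± 0.32, adjusted p 0.0068, and -2.05 ± 0.24, adjusted p 0.0026). Arhgef7, an exchange factor for RAC and CDC42, changed little but evenly, from 89.9 to 112 CPM in K5 tumours to 59.4 to 70.4 CPM in Ivl tumours (-0.64 ± 0.08, adjusted p 0.0017, and -0.69 ± 0.08, adjusted p 0.0029). Ednra, the endothelin A receptor, lay at 10.1 to 31.8 CPM in Ivl and 35.9 to 52.0 CPM in K5 tumours. Emid1, a secreted matrix protein, lay at 2.81 to 8.53 CPM and 8.76 to 20.9 CPM. Pgs1 of cardiolipin synthesis, the kinase Stk25, the ubiquitin ligase scaffold Cul7 and the membrane protein Tmc6 were lower by 0.55 to 1.14 on the log2 scale over the 11 tumours. Ednra, Pgs1, Stk25 and Tmc6 overlap other genes in their exons. Rtn4rl2, a receptor of neurons, and Nell2, a secreted neural protein, were at no more than 0.460 and 0.378 CPM in any Ivl tumour, and at 0.709 to 2.92 and 1.08 to 3.61 CPM in K5 tumours. Nell2 was not called without K5 tumour 1 or 5 or Ivl tumour 6 (adjusted p 0.065, 0.067 and 0.054), and Cul7 was not called without K5 tumour 1 (adjusted p 0.058).

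Among the genes whose promoters drove Cre, Ivl was lower in tumours of Ivl origin. It held 81.4, 337 and 569 CPM in the lowest, median and highest Ivl tumour, and 1784, 1819, 956, 985 and 1675 CPM in the K5 tumours. No values overlapped, and the difference was -2.16 ± 0.39 (adjusted p 0.013) over the 11 tumours and -1.51 ± 0.33 over the 7, where it did not pass (adjusted p 0.070). Krt5 differed by 0.32 ± 0.26 and 0.55 ± 0.21 and Krt14 by -0.34 ± 0.36 and 0.21 ± 0.23, and none of these passed (adjusted p 0.30 to 0.77). All 11 tumours held high levels of this keratinocyte marker, with Krt14 at 5639 to 45642 CPM in Ivl and 33080 to 46567 CPM in K5 tumours, the lowest in Ivl tumour 1. Itga3, which encodes a subunit of a laminin receptor of basal cells, was called lower over the 11 tumours (-1.32 ± 0.29, adjusted p 0.029) but not over the 7 (-1.05 ± 0.37, adjusted p 0.26). Of 12 basal keratinocyte genes, 2 were called lower over the 11 tumours and none over the 7, and the medians were -0.74 and -0.60.

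Of 23 genes that the study discusses, 5 were called over the 11 tumours (Sox2, Krt13, Krt4, Ivl and Dusp6) and 3 over the 7 (Sox2, Krt13 and Krt4). The study picked some of them, Sox2, Krt13 and Krt4 among them, with these libraries in hand, so the direction of those here is not independent evidence. Others, such as Ivl and Dusp6, it used as markers in tissue staining. By staining, it found SOX2 protein higher in Ivl than in K5 or K14 tumours. For KRT4 and KRT13 it reported that protein did not differ substantially between its models. The stem cell genes Sox9, Cd34 and Lgr5, the proliferation marker Mki67, the wound keratins Krt6a and Krt6b and the cytokine Il24 did not pass. Mki67 was at 304 to 433 CPM in Ivl and 173 to 280 CPM in K5 tumours, without overlap (0.67 ± 0.24, adjusted p 0.12, and 0.59 ± 0.31, adjusted p 0.46). Il24 was at 0.384 to 22.3 CPM in Ivl and 19.1 to 52.0 CPM in K5 tumours (-2.59 ± 0.78, adjusted p 0.086, and -1.61 ± 0.67, adjusted p 0.36). Myc, Hif1a, Stat3, Il6 and Tgfbr1 differed by -0.23 to 0.12 over the 11 tumours, and none of them passed.

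Some lists held calls over the 11 tumours that were not made over the 7. Of 16 hypoxia and glycolysis genes, the glucose transporter Slc2a1, the glycolytic enzyme Pfkp, the carbonic anhydrase Car9 and the oxygen sensor Egln3 were called lower (-1.14, -0.99, -2.08 and -1.39), and the medians were -0.52 and -0.46. Of 18 genes of STAT3 and interleukin-6 signalling, the feedback inhibitor Socs3 was called lower (-1.39 ± 0.34, adjusted p 0.048). Of 26 hedgehog, Notch and Wnt genes, the ligands Wnt3a and Wnt10a were called lower (-1.07 and -0.59). Of 17 clock genes, a list drawn up after the values were seen, 6 were called higher and 1 lower over the 11 tumours, but over the 7 only Clock, a core activator of the cycle, passed. Clock held 132 to 301 CPM in Ivl and 66.0 to 106 CPM in K5 tumours (1.05 ± 0.21, adjusted p 0.023, and 1.26 ± 0.22, adjusted p 0.029). The labels do not give the hour at which tissue was taken. On the list of 16 p53 and senescence genes, Trp53inp1 was called higher in both (1.63 ± 0.24, adjusted p 0.0037, and 1.35 ± 0.23, adjusted p 0.029), from 42.6 to 99.7 CPM in Ivl and 13.7 to 22.9 CPM in K5 tumours. Eda2r was called over the 11 tumours only (1.76 ± 0.32, adjusted p 0.013). Trp53 itself and its targets Cdkn1a and Mdm2 did not pass, and the list's medians were -0.03 and 0.08.

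**Figure D4:**
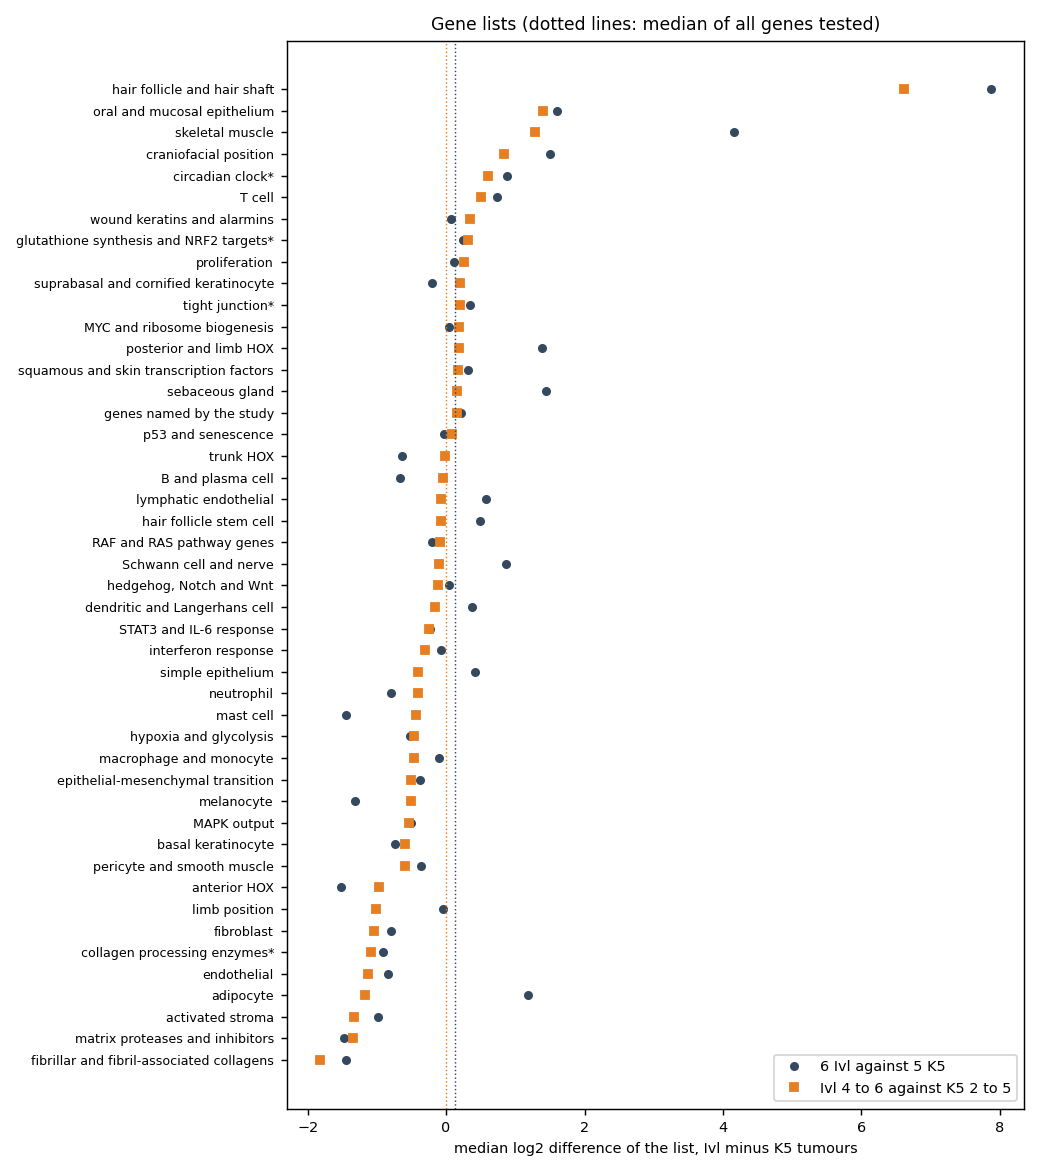
Median log2 difference between Ivl and K5 tumours (x axis) over the members of each gene list (y axis), over 11 tumours (circles) and over 7 (squares); dotted lines are the medians of all genes, 0.13 and 0.0, and an asterisk marks lists drawn up after values were seen. Mucosal epithelium lies at 1.6 and 1.4, collagens at -1.44 and -1.82, and adipocyte genes at 1.19 and -1.17, on opposite sides of 0.

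Values in normal skin and K14 tumours are given beside these genes as a description. Of the 33 genes called higher, the K14 mean lay nearer to the K5 mean than to the Ivl mean for 25, and of the 36 called lower for 30. K14 and K5 tumours were called different for 2 of the 69 in the fit without the set of 4, Tnfrsf12a and Gm26574. In normal skin, 21 of the 33 were called higher than in K5 tumours and 2 lower. Of the 36 called lower in Ivl tumours, 29 were lower in skin than in K5 tumours as well and 1 was higher. The comparisons with skin and with K14 tumours share the K5 tumours with that of the origins, so these counts are not independent of the calls. A gene called because K5 tumours were extreme would tend to differ from skin on the same side. The same shares over all genes were not counted, so the counts describe these genes only. Krt13 was lower in skin than in tumours of any origin other than K5 tumour 1, at 6.74 to 15.4 CPM in K14 tumours and 0.431 to 1.06 CPM in skin. Sox2 in skin was at 0.732 to 1.71 CPM, below every Ivl tumour.

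HOX genes, which mark position along the body, differed widely between tumours of the same origin. Of 37 HOX genes in the table, 3 to 24 were over 1 CPM in Ivl tumours and 6 to 27 in K5 tumours. K5 tumour 1 and Ivl tumour 1 had the most, 27 and 24, and the other Ivl and K5 tumours had 3 to 13. K14 tumours had 17 to 22 and skin 20 to 23. K5 tumour 1 and Ivl tumour 1 are among the libraries that the second comparison leaves out. The mean of those libraries lay close to that of the rest, K14 tumours and skin among them. Ivl tumours 2 and 3, also left out there, had 7 and 5. Whether the adjustment of the counts had a part in these HOX levels was not tested. Hoxa9, of the trunk, was at 35.5 CPM in Ivl tumour 1 and 6.96 CPM in K5 tumour 1, at 14.6 to 35 CPM in K14 tumours, and at 0.0253 CPM or less in every other Ivl and K5 tumour. Over the 11 tumours Hoxd1 was called lower (adjusted p 0.025), at 0 in all 6 Ivl tumours and 0.0159 to 0.151 CPM in K5 tumours (7 counts at most), so the K5 mean was at least 1.55-fold above a floor of 3 counts per library. En1, a gene of the ventral limb, was called lower as well (-3.42, adjusted p 0.029). Of 21 genes of craniofacial position, none was called, and the medians were 1.5 and 0.84. The sum of this list lay at 173 to 371 CPM in Ivl and 56.0 to 156 CPM in K5 tumours, without overlap. Pitx1, whose levels are given above, is on this list and on the limb list, and a sum without it was not made. The limb list summed to 126 to 307 CPM in Ivl tumours 4 to 6 and 80.6 to 114 CPM in K5 tumours 2 to 5. Over the 11 tumours its sums overlapped. Within the craniofacial list, Otx1, which patterns the head, was at 64 CPM in Ivl tumour 6 and at 7.29 CPM or less in the other Ivl and K5 tumours.

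**Figure D5:**
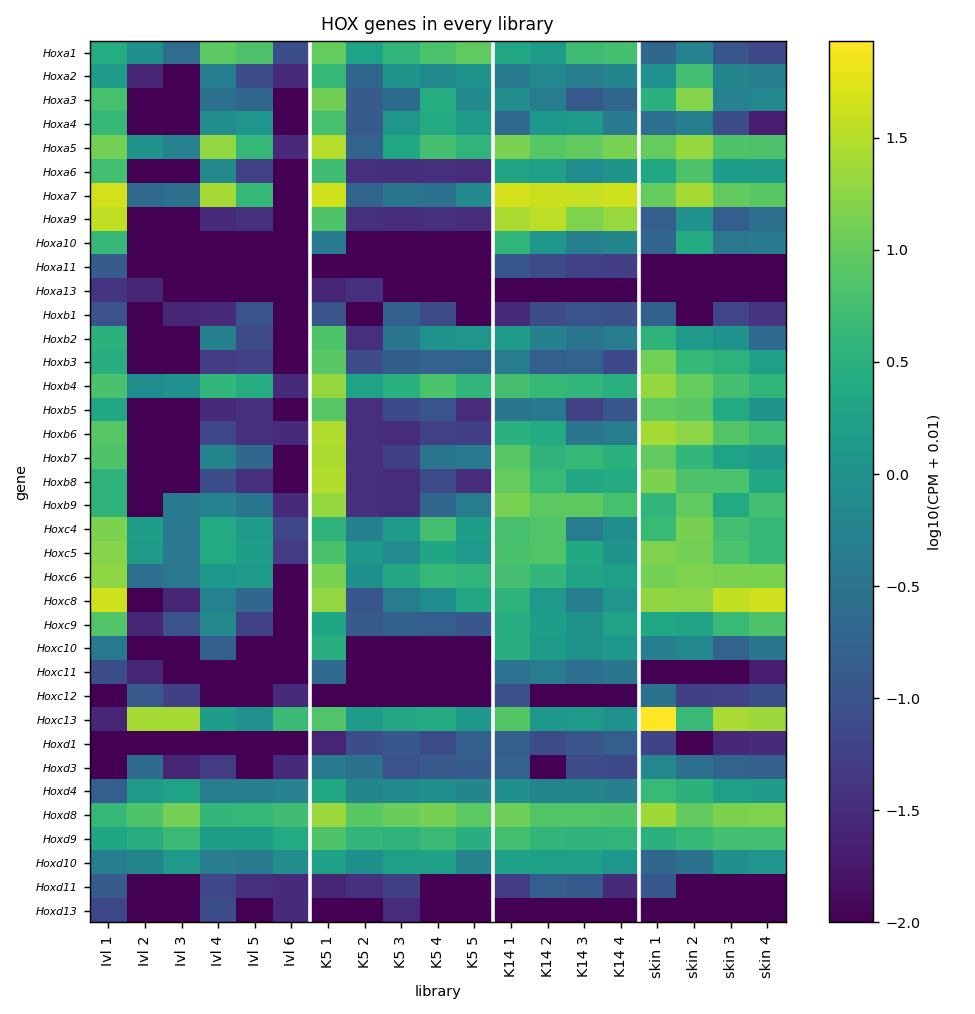
Level of 37 HOX genes (y axis) in each of the 19 libraries (x axis), coloured by log10 of CPM plus 0.01. Ivl tumour 1 and K5 tumour 1 have 24 and 27 genes above 1 CPM, while Ivl tumour 6 shows 3 genes above 1 CPM, Hoxc13, Hoxd8 and Hoxd9. Ivl tumours 1 to 3 and K5 tumour 1 are the libraries that the second comparison leaves out.

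Tumours also differed in their levels of RNA from other skin tissue. The hair follicle and hair shaft list had the largest medians, 7.87 and 6.62, without a call. Its sum was 3526, 1507, 399 and 1364 CPM in Ivl tumours 2, 3, 4 and 6, 67.9 and 131 CPM in Ivl tumours 1 and 5, and 130 to 330 CPM in K5 tumours. Of its 25 genes tested, 8 were at or under 3 counts in every K5 tumour, where a fitted difference depends on the prior count, so these medians are no measure of fold. Skeletal muscle genes summed to 8192, 3151 and 690 CPM in Ivl tumours 2, 3 and 6 and to at most 249 CPM in any other Ivl or K5 tumour. Skin held 3947 to 16242 CPM of the muscle list. Ivl tumours 2 and 3 are in the set of 4, whose mean lay close to that of the other 15 libraries, skin among them. Whether the adjustment of the counts had a part in these levels was not tested. For the members above, the part of hair follicle and muscle RNA was not tested.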

How the data were processed

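Tumours and skin were profiled by strand-specific poly(A) RNA sequencing, with 1 library per tumour. The authors trimmed reads with TrimGalore, aligned them to GRCm38 with HISAT2 2.1.0, counted reads per gene with featureCounts (Subread 1.6.3) and adjusted the table for sequencing batch with ComBat-seq, so the deposited values are estimated counts for 34807 genes and not the counts first read. Such an adjustment can pull the libraries of a batch towards the rest. Columns were matched to samples by name and values were rounded to whole numbers.

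The quasi-likelihood test of edgeR 4.0.16 under R 4.3.3 was run on every gene that reached 5 counts in any library. All 4 groups entered the fit over the 11 tumours, with TMM scaling. The second fit left out the set of 4 libraries. DESeq2 1.42.0, other scalings and filters, a fit of both origins alone, a replicate block, the set of 4 as a covariate and fits without each tumour were alternatives. Libraries of a group were compared, and in 25 pairs the chi-square per degree of freedom was at least 28.7, so none counted as a duplicate. P-values from these fits cover the spread between libraries.

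Named genes were the first 12 in each direction called in both comparisons, genes the study discusses, list members that passed or came closest, Braf, Ivl, Krt5 and Krt14. Other genes were named after their values were seen. The members and lists were chosen with earlier results of these data known, and 4 lists were added to the first 43 after values were seen. Some genes selected in this way are not reported here. On simulated counts for 6 against 5 libraries (30072 genes), 80% of 100 genes changed by 2 on the log2 scale and 98% of 100 changed by 4 were called, with 8 false calls. For 3 against 4 (29986 genes) these were 85%, 92% and 10. The changed genes were drawn from well expressed genes and no batch adjustment was simulated. These rates therefore do not cover weakly expressed genes or the effect of the set of 4. Promoter sequences are from RefSeq, and gene positions from the GENCODE annotation of GRCm38. The numbering of replicates did not pair the tumours.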

Additional observations from a re-analysis of the deposited data

Results flagged for a closer look

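In 48 sets of values tested, each of 1 gene in 1 origin, 7 held 1 tumour far from the rest, by the gap to its neighbour as a share of the set's range. Chance gives about 1 in 20 for independent sets. These sets share the same tumours and hold genes selected on these values, so the counts cannot be set against that rate. In 5 of the 7 that tumour was K5 tumour 1. It held 19.2 CPM of Gclm where the other K5 tumours held 33.9 to 39.2, 0.0318 CPM of Krt13 where they held 15.4 to 17.8, and 0.0794 CPM of Gm12766 where they held 0.177 to 0.226. Its levels of Pgs1, 93.5 CPM, and Tmc6, 63.3 CPM, were above those of the others, at 72.4 to 77.4 and 47.2 to 50.9. K5 tumour 1 was the K5 library of the set of 4, and the comparison over the 7 tumours leaves it out. In K5 tumour 2, Stk25 was at 75.4 CPM against 82.7 to 85.6, and in K5 tumour 5, Nell2 was at 3.61 CPM against 1.08 to 1.35. Whether the adjustment of the counts had a part in these values was not tested.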

How the results depend on the processing

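The counts of called genes moved with the model. Over the 11 tumours, 470 calls became 747 with the filterByExpr filter, 3207 with DESeq2 and 312 with both origins alone in the fit, and 96 to 734 when 1 tumour was left out. Over the 7, 111 became 1162 with DESeq2, 461 with both origins alone and 16 to 95 without 1 tumour. Calls in both, 69, became 824, 161 and 13 to 83. With both origins alone, the 7 tumours gave 136 higher and 325 lower calls, and DESeq2 gave 2081 higher and 1126 lower over the 11. In the permutation tests over the 7 tumours, leaving out 1 gave differences of 3.99 to 5.55 for Sox2, 5.65 to 7.25 for Krt13 and 3.97 to 5.75 for Krt4, with exact p of 0.067 or 0.1, the smallest those sizes allow. All 69 genes kept their direction over the 11 tumours in every alternative run. They were selected for a shared direction in these same libraries, so this is no measure of stability. Without K5 tumour 4 or K5 tumour 5, 13 of the 69 were still called in both. The cause of the other changes in count was not tested. Replicate numbers are shared between the origins, but tumours with the same number deviated together for some numbers only (r of -0.215, -0.334, 0.157, -0.332 and 0.39), so the numbers do not pair them. With the replicate block the counts were 105, 67 and 19, and 15 of the 69 were still called in both. Of the named leading genes, the block left 7 uncalled over the 11 tumours by edgeR, namely Krt13, Mblac2 and Stk25 (adjusted p 0.071 each), Gm12766 (0.098), Cul7 (0.059), Rtn4rl2 (0.055) and Nell2 (0.1). Depth limits genes near 1 CPM or below, such as Nell2, Hoxd1 and Gm12766.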

Other observations

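Over 13051 genes, the root mean square log2 distance between tumours was 0.62 to 0.86 between Ivl tumours 4 to 6 and K5 tumours 2 to 5, with a median of 0.68. Within the origins it was 0.34 to 0.68 (median 0.64) in 3 pairs of those Ivl tumours and 0.33 to 0.66 (median 0.55) among those K5 tumours. The median Ivl pair was thus nearly as far apart as Ivl and K5 tumours. The closest Ivl pair, at 0.34, was nearer than any Ivl tumour was to a K5 tumour. K5 and K14 tumours were 0.45 to 0.81 apart (median 0.58), and Ivl tumours and skin 1.41 to 1.69 (median 1.56).

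Neutrophil genes, a list of 17, summed to 6427 to 13132 CPM in K5 tumours. Ivl tumours 4 to 6 held 4808 to 7398 CPM and Ivl tumours 1 to 3 held 881 to 1759 CPM. None was called, and the median differences were -0.79 and -0.41. T cell genes, a list of 15, summed to 48.4 to 99.4 CPM in Ivl and 57.4 to 91.2 CPM in K5 tumours, also without a call. Matrix proteases and their inhibitors had medians of -1.48 and -1.35, with 15 and 16 of 16 below 0 and none called.

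Rn7sk, an RNA without a poly(A) tail, was at 1239 and 814 CPM in Ivl tumours 2 and 3 and at 15.9 CPM or less in the other Ivl and K5 tumours. The same tumours held the most skeletal muscle and hair follicle RNA of the 11. Both are in the set of 4. Summed over 13 tested transcripts without a poly(A) tail, skin held 1518 to 2220 CPM. Whether the adjustment of the counts had a part in the Rn7sk levels was not tested.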
